A study of Mus musculus with 2 samples.

Results

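The Kelch-like adaptors and the cullins were described in total RNA from the gastrocnemius, a calf muscle, of young mice. The genes were taken by name: every annotated gene with a protein-coding transcript whose symbol was Klhl, Kbtbd or Cul followed by a number. This gave 53 of the 55536 annotated genes, made up of 45 adaptors and 8 cullins. Among the adaptors, 9 that are known from earlier work as restricted to or strongly enriched in striated muscle (Klhl30, Klhl31, Klhl33, Klhl34, Klhl38, Klhl40, Klhl41, Kbtbd12 and Kbtbd13) were set against the remaining 36. No other tissue was measured, so that restriction is background and not a result.

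The donors were B6CASTF1/J females, the F1 offspring of a cross between C57BL/6J and CAST/EiJ, taken 14 days after birth; the labels name no other allele and no treatment. The series held 1 group of 2 libraries, numbered as biological replicates 1 and 2, each made from 300 ng of total RNA. The library descriptions speak of 3 females, but the tissue record of replicate 2 names a single female, so whether a library is a pool of animals is unclear and the spread between the libraries may be partly technical. No condition was compared, and the values below describe levels in this muscle and the difference between its libraries.

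A cullin is the scaffold of a ubiquitin ligase: one end holds a RING protein that brings the ubiquitin-charged enzyme, and the other holds the receptor that chooses the substrate. Kelch-like proteins are receptors of the cullin 3 ligase, with a BTB domain that binds CUL3 and kelch repeats that bind the substrate. A cell's set of these adaptors thus bears on which proteins that ligase can reach. In skeletal muscle several of them act at the sarcomere, and mutations in KLHL40, KLHL41 and KBTBD13 cause nemaline myopathy, a disease of the thin filaments.

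Gene counts summed to 35592003 in replicate 1 and 42105856 in replicate 2. Levels between genes are given as TPM, an abundance corrected for transcript length and scaled to the same sum in each library. All 8 muscle fibre markers were above 1 TPM in both libraries, with summed levels of 113396 and 119603 TPM, while none of the 4 lymphoid and none of the 4 neuronal markers reached 1 TPM in both. In whole tissue, fewer cells of a type and less RNA per cell cannot be told apart.

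Sequence upstream of the start site is shown first for 4 muscle-restricted adaptors, because a known muscle motif marks 3 of them. RefSeq windows (GRCm38.p6, from 250 bases before to 50 bases after an annotated start) were held for 44 of the 53 genes, and for 7 of the 9 muscle-restricted adaptors. The element bound by MEF2 factors, transcription factors of muscle differentiation, was matched by its consensus on both strands. It was in 3 of 8 muscle-restricted windows (37.5%), in 0 of 41 windows of the other adaptors, in 0 of 9 cullin windows and in 3.19% of all 32851 windows. The stretches from 150 to 31 bases before the start are printed 5′ to 3′ on the gene's strand, with MEF2 elements and E-boxes (CANNTG) in capitals. They lie at chr2:69669970-69670089 (plus strand) for Klhl41, chr14:50897514-50897633 (minus strand) for Klhl33, chr6:88627460-88627579 (minus strand) for Kbtbd12 and chr9:121777457-121777576 (plus strand) for Klhl40.
Klhl41: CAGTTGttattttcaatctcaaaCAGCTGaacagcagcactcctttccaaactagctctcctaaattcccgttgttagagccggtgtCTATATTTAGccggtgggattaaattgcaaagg
Klhl33: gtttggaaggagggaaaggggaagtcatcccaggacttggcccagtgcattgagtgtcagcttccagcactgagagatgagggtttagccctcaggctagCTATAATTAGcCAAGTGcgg
Kbtbd12: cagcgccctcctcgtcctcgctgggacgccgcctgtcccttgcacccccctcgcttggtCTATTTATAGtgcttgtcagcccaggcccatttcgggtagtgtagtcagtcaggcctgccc
Klhl40: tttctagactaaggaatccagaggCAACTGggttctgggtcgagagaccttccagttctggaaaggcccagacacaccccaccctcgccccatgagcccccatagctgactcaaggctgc

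The MEF2 matches were CTATATTTAG in Klhl41, CTATAATTAG in Klhl33 and CTATTTATAG in Kbtbd12, with first bases at -63, -50 and -91 counted from the annotated start. Klhl33 has a further annotated start inside the gene, whose window held no MEF2 element. The only Kbtbd12 window (chr6:88627380-88627679, minus strand) also lies inside the gene as placed here, which begins at 88637950. Its MEF2 match is therefore within the gene. The Klhl31 window (chr9:77636482-77636781, plus strand) lies almost wholly inside its gene, which begins at 77636500. The Klhl40 window held E-boxes and no MEF2 element, and the Klhl31 window held none of the 4 motifs searched although Klhl31 was among the most abundant adaptors. E-boxes, bound by MyoD and many other factors, were in 7 of 8 muscle-restricted windows (87.5%), but also in 51.2% of the other adaptors' windows, 55.6% of cullin windows and 72.3% of all windows. The MCAT element (CATTCC) was in 1 of 8 muscle-restricted windows (12.5%) against 14.7% of all windows, and the CArG box in 0 of 8 against 1.63%. E-boxes and MCAT elements were also searched on both strands, and no match of one motif overlapped another in the printed stretches. These matches describe letters and not binding.

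All 9 muscle-restricted adaptors reached 1 TPM in both libraries, and so did all 8 cullins and 25 of the 36 other adaptors. Together 42 of 53 genes (79.2%) were at this level, against 50% of 22015 nuclear protein-coding genes and 21.5% of all annotated genes. The median level of the muscle-restricted adaptors was 23.1 TPM in replicate 1 and 35.5 TPM in replicate 2. That of the other adaptors was 2.69 and 2.91 TPM, that of the cullins 22.7 and 22.6 TPM, and that of nuclear protein-coding genes 1.08 and 1.27 TPM. The muscle-restricted median was thus 8.59 times the other adaptors' median in replicate 1 and 12.2 times in replicate 2.

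**Figure D1:**
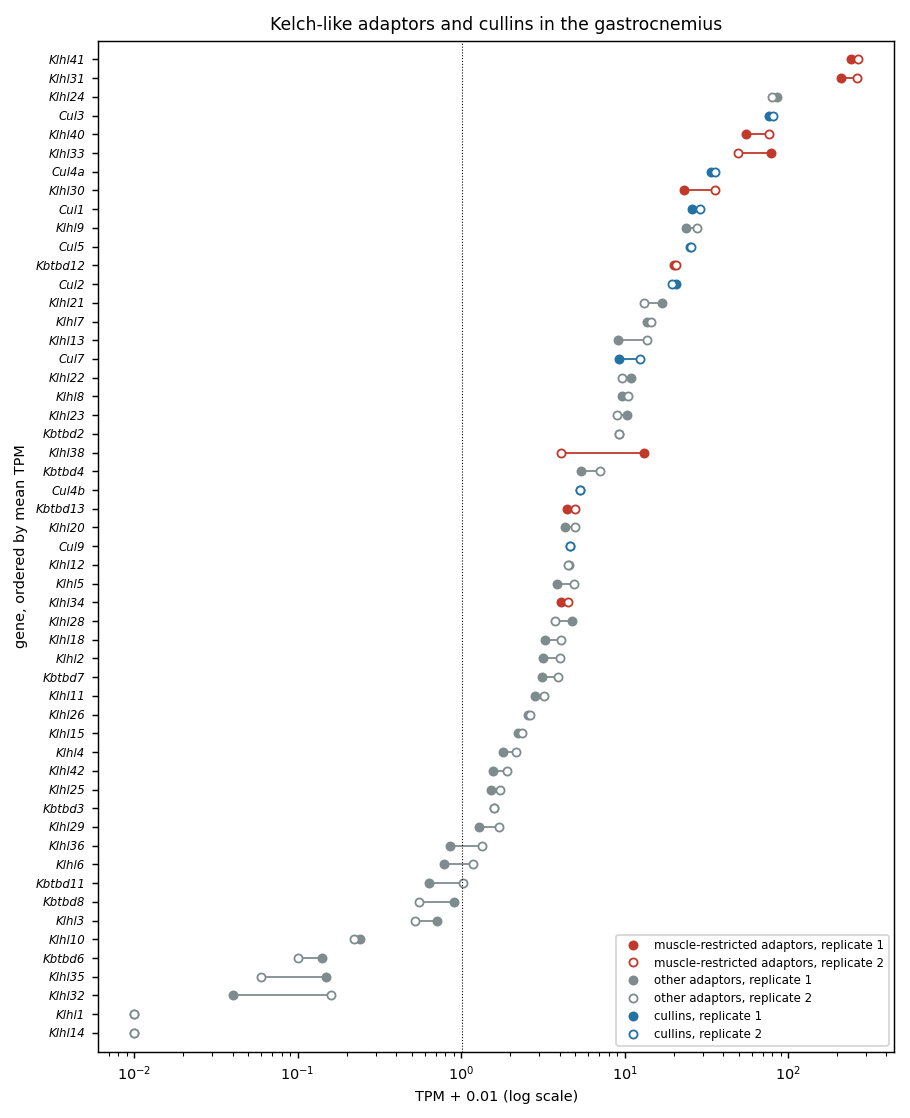
Level of each of the 53 genes in TPM (log scale, a small constant added so that 0 can be drawn), ordered by mean; filled points are replicate 1, open points replicate 2, and the dotted line marks 1 TPM. Klhl41 and Klhl31 stand at the top in both libraries, with means of 255.8 and 238 TPM, and Klhl38 has the widest gap between libraries among the genes above 1 TPM.

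Klhl41 and Klhl31 were the most abundant adaptors. Klhl41 (chr2:69670120-69684230, plus strand, mm10), which stabilises the giant thin-filament protein nebulin, stood at 242.89 TPM in replicate 1 and 268.73 TPM in replicate 2 (255.8 ± 18.3, SD, n = 2). Klhl31 (chr9:77636500-77660127, plus strand), an adaptor for the actin cross-linker filamin C, stood at 211.77 and 264.54 TPM (238 ± 37.3, SD, n = 2). Both were in the top 2% of nuclear protein-coding genes by mean TPM. Klhl41 was above Klhl31 in both libraries, but their deposited intervals were apart only in replicate 1, so their order was not settled. A deposited interval need not hold the TPM given here. That of Klhl41 was 233.6 to 240.9 TPM in replicate 1 and 259.7 to 266.8 TPM in replicate 2, below its TPM in each.

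Klhl40 (chr9:121777607-121783818, plus strand), which stabilises nebulin and leiomodin 3, stood at 55.50 and 76.82 TPM (66.2 ± 15.1, SD, n = 2). Klhl33 (chr14:50888582-50897507, minus strand) stood at 78.35 and 49.17 TPM (63.8 ± 20.6, SD, n = 2). These genes changed places: Klhl33 was the higher in replicate 1 and Klhl40 in replicate 2. Klhl30 (chr1:91351016-91362416, plus strand) followed with 23.12 and 35.52 TPM (29.3 ± 8.77, SD, n = 2). Kbtbd12 (chr6:88545114-88637950, minus strand) was nearly the same in both libraries, with 20.11 and 20.62 TPM.

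The lowest of the muscle-restricted adaptors were still above the median protein-coding gene. Klhl38 (chr15:58314573-58324169, minus strand) stood at 13.16 TPM in replicate 1 and 4.08 TPM in replicate 2 (8.62 ± 6.42, SD, n = 2). Kbtbd13 (chr9:65388684-65391652, minus strand), the adaptor mutated in a nemaline myopathy with slow relaxation, stood at 4.43 and 4.99 TPM. Klhl34 (chrX:157818435-157820369, plus strand) stood at 4.07 and 4.49 TPM. Kbtbd13 and Klhl34 are each made as a single exon in their leading transcript. Klhl38 was above both in replicate 1 and below both in replicate 2.

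Few adaptors held most of the adaptor transcripts. The 9 muscle-restricted adaptors made up 73.0% of the summed TPM of all 45 adaptors in replicate 1 and 74.7% in replicate 2 (73.8% ± 1.25, SD, n = 2). Klhl41 alone held 27.1% and 27.5%, and Klhl31 23.6% and 27.1%, so the pair held more than all others together in each library (50.8% and 54.7%). The share of Klhl40 was 6.20% and 7.87%, that of Klhl33 8.75% and 5.04%, and that of Klhl38 1.47% and 0.418%. The 4 members with the clearest published muscle role (Klhl31, Klhl40, Klhl41 and Kbtbd13) held 60.3% on average.

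Of the 8 neighbouring pairs in the order of muscle-restricted means, the deposited intervals were apart in both libraries for 3: Klhl31 over Klhl40, Klhl33 over Klhl30, and Kbtbd12 over Klhl38. The order turned between libraries for 2 pairs, Klhl40 with Klhl33 and Klhl38 with Kbtbd13. Over all 53 genes, 5 of 52 neighbouring pairs were apart in both libraries and 23 turned, so the finer order of levels is not resolved by these libraries. The 5 include Klhl32 over Klhl1, which sets 2 and 10 counts against 0 in both libraries. The direct quantification, a second deposited estimate made from the reads, turned another of them, Cul5 over Kbtbd12, in both libraries. It gave Cul5 32.5 and 32.2 TPM and Kbtbd12 37.3 and 41.3 TPM. Cul2 over Klhl21 turned there in replicate 1 (21.2 against 21.8 TPM).

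The other adaptors had a low median, but the highest of them reached the levels of the muscle-restricted ones. Klhl24, whose product controls the turnover of intermediate filament proteins, stood at 86.00 and 79.48 TPM, the third of the 45 adaptors by mean level, and held 9.60% and 8.15% of the adaptor sum. After it came Klhl9 (23.91 and 27.85 TPM), which works in cell division with Klhl13 (9.11 and 13.71 TPM) and also acts on the insulin receptor substrate IRS1. Klhl9 was 2.62 and 2.03 times as high as Klhl13. Klhl21, another adaptor of dividing cells, stood at 16.94 and 13.13 TPM, and Klhl7 at 13.80 and 14.50 TPM.

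The next adaptors lay close together near 10 TPM. They were Klhl22 (11.01 and 9.70 TPM), Klhl8 (9.67 and 10.48 TPM), which acts on the synaptic protein rapsyn, Klhl23 (10.32 and 8.95 TPM) and Kbtbd2 (9.23 and 9.28 TPM), which targets the p85α regulatory subunit of PI3 kinase. Lower still were Kbtbd4 (5.42 and 7.09 TPM), Klhl20 (4.32 and 4.98 TPM), Klhl12 (4.59 and 4.51 TPM), Klhl5 (3.85 and 4.88 TPM), Klhl28 (4.76 and 3.74 TPM) and Klhl18 (3.26 and 4.09 TPM). Klhl12 monoubiquitinates the COPII coat protein SEC31 and so bears on collagen export. The other 10 adaptors detected in both libraries ran from Klhl2 (3.16 and 4.00 TPM) down to Klhl29 (1.27 and 1.70 TPM). Among the 36 other adaptors, 14 of 35 neighbouring pairs turned between libraries and 3 were apart in both. The 3 include Klhl32 over Klhl1, which had 0 counts.

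The 11 adaptors under 1 TPM in at least 1 library were all outside the muscle-restricted list. Klhl36 (0.84 and 1.34 TPM), Klhl6 (0.78 and 1.18 TPM), known from B lymphocytes, and Kbtbd11 (0.63 and 1.02 TPM) passed 1 TPM in replicate 2 alone. Kbtbd8 (0.90 and 0.54 TPM), Klhl3 (0.70 and 0.51 TPM), which controls WNK kinases in the kidney, and Klhl10 (0.23 and 0.21 TPM), known from spermatids, were below it in both. Klhl35 had 5 and 1 counts, and Klhl32 had 2 and 10. Klhl1, known from neurons, and Klhl14 were listed at 0 in both gene tables, which allows up to 3 counts each in a library, counting error only.

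Kbtbd6 and Kbtbd7 are closely related neighbours that act together on the RAC1 activator TIAM1, and reads are divided between them by estimate. Kbtbd7 stood at 3.12 and 3.88 TPM and Kbtbd6 at 0.13 and 0.09 TPM. Kbtbd6 was the only one of the 53 genes whose deposited posterior standard deviation exceeded 1% of its count, so its level is uncertain.

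Cul3, the scaffold that the adaptors share, was the most abundant cullin. Cul3 (chr1:80264923-80340480, minus strand) stood at 76.58 and 81.23 TPM (78.9 ± 3.29, SD, n = 2) and held 38.1% ± 0.0823 (SD, n = 2) of the summed cullin TPM. Cul4a, scaffold of the DDB1 ligases, stood at 33.84 and 35.72 TPM, and its paralog Cul4b at 5.30 and 5.35 TPM. Cul3 was 2.26 times Cul4a in replicate 1 and 2.27 times in replicate 2, and Cul4a was 6.38 and 6.68 times Cul4b. All of these gaps were larger than the deposited intervals.

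Cul1, scaffold of the SCF ligases that use F-box receptors, stood at 25.72 and 29.09 TPM. Cul5 (24.96 and 25.49 TPM) and Cul2 (20.50 and 19.62 TPM) both bind elongin B and C. The large atypical cullins were lower, Cul7 at 9.18 and 12.45 TPM and Cul9 at 4.65 and 4.62 TPM. The order of the 8 cullins was the same in both libraries, and 5 of 7 neighbouring pairs were apart in both. Cul1 with Cul5 and Cul4b with Cul9 were not. In the direct quantification Cul1 (48.5 and 58.8 TPM) was above Cul4a (43.9 and 46.7 TPM) in both libraries. The order of this pair thus depends on the estimate.

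The adaptors together outnumbered Cul3 in transcripts. Their summed TPM was 11.7 times that of Cul3 in replicate 1 and 12.0 times in replicate 2, and Klhl41 alone was 3.17 and 3.31 times Cul3. Klhl31 was 2.77 and 3.26 times Cul3. These are ratios of RNA and say nothing of protein.

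**Figure D2:**
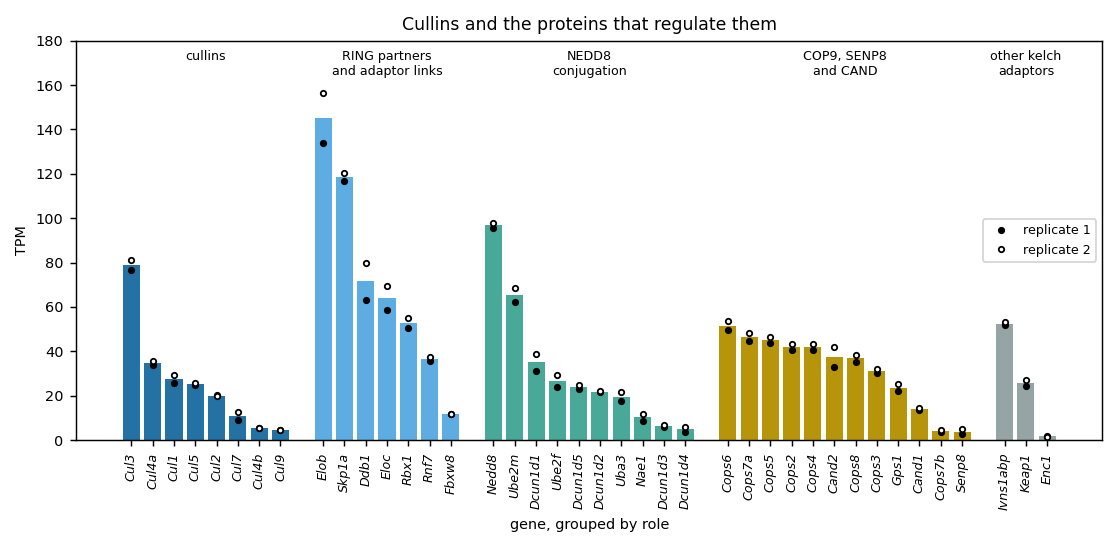
Level in TPM of the 8 cullins and of 32 genes for their RING partners, NEDD8 conjugation, NEDD8 removal and cullin exchange, and the other kelch adaptors; bars are means from 0, filled points replicate 1 and open points replicate 2. Cul3 is the tallest cullin bar, and every gene of these lists lies above 1 TPM in both libraries.

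Every listed gene of the cullin machinery was above 1 TPM in both libraries. The 7 RING partners and adaptor links had a median of 64.0 TPM, led by the elongin Elob (133.74 and 156.49 TPM), the SCF link Skp1a (116.77 and 120.30 TPM) and the CUL4 link Ddb1 (63.19 and 79.87 TPM), with Fbxw8, the CUL7 receptor, lowest (11.82 and 11.70 TPM). Rbx1, the RING protein of most cullins, was 1.43 and 1.46 times Rnf7, that of CUL5. Cullins are switched on by attachment of the ubiquitin-like protein NEDD8, and the 10 genes of that step had a median of 22.9 TPM. They were led by Nedd8 (95.72 and 98.02 TPM), its conjugating enzyme Ube2m (62.21 and 68.63 TPM) and the cullin-binding ligase Dcun1d1 (31.10 and 38.80 TPM), with Dcun1d4 lowest (3.63 and 5.85 TPM).

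The 12 genes for NEDD8 removal and receptor exchange had a median of 37.1 TPM. Subunits of the COP9 signalosome, which removes NEDD8 from cullins, led them: Cops6 (49.40 and 53.61 TPM), Cops7a (44.81 and 48.29 TPM) and the catalytic subunit Cops5 (43.60 and 46.57 TPM). Senp8, which processes the NEDD8 precursor, was lowest (2.54 and 5.03 TPM). Of the exchange factors that strip receptors from bare cullins, Cand2, the form enriched in muscle, was 2.41 and 2.90 times Cand1, at 32.82 and 42.10 TPM against 13.62 and 14.53 TPM. Of kelch proteins outside the naming scheme, 3 are given: Ivns1abp (51.82 and 53.21 TPM), the NRF2 adaptor Keap1 (24.33 and 26.90 TPM) and Enc1 (1.84 and 1.55 TPM).

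Known substrates and partners of the adaptors were mostly present. Of 15 listed, 14 reached 1 TPM in both libraries. Nebulin (Neb), partner of Klhl40 and Klhl41, stood at 2119.21 and 2149.49 TPM, and leiomodin 3 (Lmod3), the Klhl40 partner that nucleates thin filaments, at 58.76 and 70.33 TPM. Filamin C (Flnc), target of Klhl31, stood at 154.47 and 213.46 TPM. The kinase Wnk1 was at 113.39 and 132.13 TPM, while Klhl3, an adaptor for it, was under 1 TPM in both libraries. Wnk4 was lowest at 0.34 and 0.49 TPM.

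Of 12 receptors used by cullins other than Cul3, 10 reached 1 TPM in both libraries. The highest were the muscle F-box protein Fbxo40 (88.02 and 62.55 TPM) and the SOCS-box proteins Asb2 (81.56 and 55.29 TPM) and Asb5 (59.16 and 63.52 TPM), which work with CUL5. Dtl, a CUL4 receptor of replicating cells, was lowest (0.33 and 0.97 TPM).

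Differences between the libraries were measured on counts scaled by TMM, a library scaling that assumes most genes do not differ. Genes with 20 or more counts over both libraries were tested, and a gene was called where its scaled counts differed by more than 1.5-fold. With 1 library on each side no test across replicates was possible, and the 95% intervals below (Clopper-Pearson) cover counting error only. Of the 48 genes with enough counts, 4 were called, against 13.5% of 15734 genes tested and 11.4% of nuclear protein-coding genes. All 4 were higher in replicate 1, the direction called in 5.65% of all genes, and none was among the 7.85% called higher in replicate 2. With a limit of 100 summed counts the same 4 were called of 47 members, against 7.83% of 12536 genes tested. The direction depends on scaling. Under total counts 5 were called, 3 of them higher in replicate 2, against 15.5% of all genes tested. With total counts, the share of calls higher in replicate 2 over all genes went from 58.1% to 73.8%. That scaling moved the median log2 ratio of all genes from 0.01 to 0.14.

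Klhl38 differed most. Its 782 counts in replicate 1 and 280 in replicate 2 made it 3.61-fold higher in replicate 1 (interval 3.15 to 4.15). Klhl33, with 10886 and 7840 counts, was 1.79-fold higher in replicate 1 (1.74 to 1.85). Klhl38 was called under every setting tried, and Klhl33 under every setting but a 2-fold limit. The low adaptors Klhl3 (1.55-fold, 1.20 to 2.00, from 139 and 116 counts) and Kbtbd8 (1.53-fold, 1.03 to 2.29, from 58 and 49 counts) were just past the limit, and neither was called under total counts. Klhl3 was also not called in the direct quantification (log2 ratio -0.49) or by TPM ratios (-0.39), where Kbtbd8 was. The direct quantification also called 4 members, against 13.6% of all genes tested in it. Klhl32, higher in replicate 2, took the place of Klhl3 there.

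The other muscle-restricted adaptors were not called, and they did not move as a block. Klhl30 was 1.37-fold higher in replicate 2 (1.30 to 1.45) and was called higher there under total counts. Klhl40 was 1.23-fold higher in replicate 2 (1.18 to 1.29) and Klhl31 1.12-fold higher (1.10 to 1.13). The ratio of replicate 2 over replicate 1 was 0.989 for Klhl41 (0.969 to 1.01), and its log2 ratio changed sign to 0.11 under total counts. Cul3 had a ratio of 0.946 and likewise changed sign, to 0.05. None of the 8 cullins was called, and neither was any of the 32 genes of the machinery lists and other kelch adaptors.

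**Figure D3:**
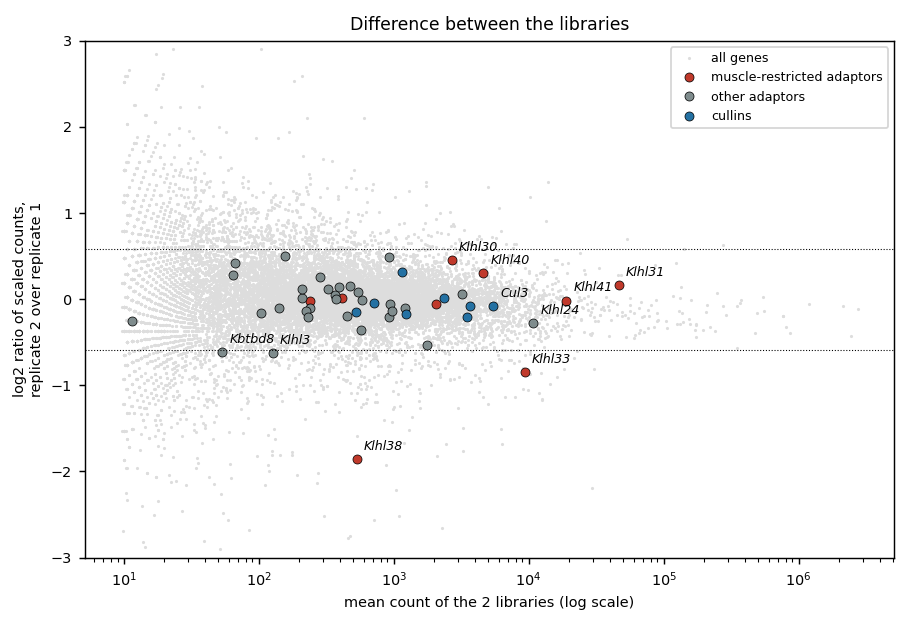
Log2 ratio of TMM-scaled counts, replicate 2 over replicate 1, against the mean count of the libraries (log scale); grey dots are all tested genes, of which 35 outside the range of -3 to 3 are not drawn, and the dotted lines mark 1.5-fold. Klhl38 and Klhl33 lie below the lower line, while the cullins lie between the lines.

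The nearest protein-coding gene below Klhl38 on chromosome 15 showed a like difference. Fbxo32 (atrogin-1), an F-box receptor of CUL1 ligases known for its rise in muscle atrophy, lies 99641 bases from Klhl38 on the same strand and had 4713 and 1788 counts (24.36 and 8.00 TPM), 3.41-fold higher in replicate 1. Fam91a1, the neighbour on the other side, stood at 4.76 and 5.16 TPM. Of the 12 receptors of other cullins 3 were called: Fbxo32, Asb2 (1.65-fold higher in replicate 1) and Dtl (2.58-fold higher in replicate 2). Of the 15 listed substrates and partners 1 was called, Pik3r1, the target of Kbtbd2, 1.68-fold higher in replicate 1. The background was the same 13.5% of all genes tested. Fbxo32 was noticed after its values were seen, being both a listed receptor and this neighbour.

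Some marker genes of other cells also differed between the libraries. Over all genes tested, 13.5% were called, 7.85% higher in replicate 2 and 5.65% higher in replicate 1. Of 4 Schwann cell markers, 3 were called higher in replicate 2, with summed levels of 183 and 511 TPM. Of 4 erythroid markers, the 3 with enough counts were all called higher in replicate 1, with sums of 2051 and 1042 TPM. Of 4 fibroblast markers 1 was called higher in replicate 2 (sums 1358 and 2248 TPM), as was 1 of 4 mural markers (sums 294 and 483 TPM). In a list of 4 genes, 1 call cannot be told apart from the share over all genes. None of the 8 fibre, 4 endothelial, 4 macrophage or 4 satellite cell markers was called. Of 4 neuronal markers only 1 had enough counts, and it was called higher in replicate 2 (sums over the 4 of 0.23 and 1.00 TPM). The part of these cells in the differences of Klhl38 and Klhl33 was not tested.

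Most adaptors had the greater part of their RNA in protein-coding transcripts, as did most cullins. Over the 42 genes at 1 TPM in both libraries, the median share of TPM in transcripts annotated as protein-coding was 97.0%, against 94.2% over 11004 nuclear protein-coding genes. The median was 100% for the muscle-restricted adaptors, 97.1% for the other adaptors and 81.9% for the cullins. Only Cul2 and Cul7 were under 50%, which is 2 of 42 genes (4.76%), against 6.83% of the background. At 99% or more were 7 of 9 muscle-restricted adaptors, against 29.4% of the background, but 6 of these 7 have a single annotated transcript and so are at 100% by annotation. The lowest of the other adaptors were Klhl2 at 62.4% and Klhl23 at 66.0% on average, and the direct quantification, a second deposited estimate made from the reads, gave them 89.5% and 85.7%.

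Cul2 had the lowest coding share, 16.2% in replicate 1 and 12.7% in replicate 2. Its leading transcript, Cul2-202, is annotated as a target of nonsense-mediated decay, which destroys RNA with an early stop, and held 46.4% and 55.4% of its TPM. Cul7 had coding shares of 42.5% and 37.2%, and its leading transcript changed from the coding Cul7-201 in replicate 1 to the retained-intron Cul7-202 (39.0%) in replicate 2. Cul9 had 52.4% and 59.5%. Cul3 had 74.0% and 67.1%, led by the coding Cul3-202 (46.4% and 43.0%), with the longer coding Cul3-201 at 22.8% and 24.2%.

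**Figure D4:**
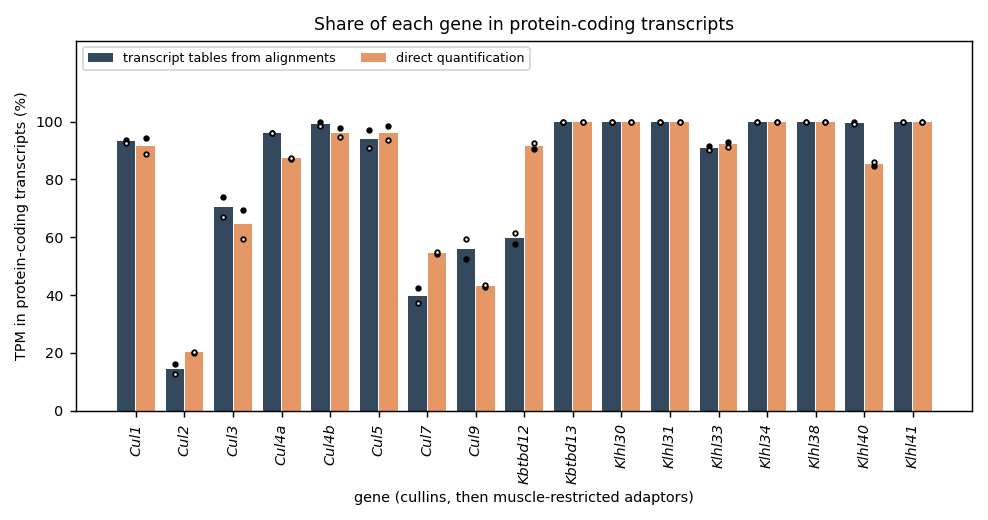
Share of each gene's TPM in protein-coding transcripts, in percent, for the 8 cullins and the 9 muscle-restricted adaptors; dark bars are means from the transcript tables, light bars means from the direct quantification, filled points replicate 1 and open points replicate 2. Cul2 is the lowest in both, and Kbtbd12 is the muscle-restricted adaptor whose bars differ most.

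Of the muscle-restricted adaptors, Kbtbd12 alone fell under 90% on average, with coding shares of 57.8% and 61.4% and a retained-intron transcript, Kbtbd12-203, at 32.3% and 30.5%. The direct quantification gave Kbtbd12 90.4% and 92.6%, so this share depends on the estimate. It left Cul2 low (a mean of 20.2%) but raised Cul7 above 50% (54.1% and 54.9%) and put Cul9 below it (42.9% and 43.5%). Klhl40 went the other way from Kbtbd12, from 100% and 99.3% to 84.6% and 85.9%.

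The same transcript led in both libraries for 39 of the 42 genes, and for all 9 muscle-restricted adaptors. Of the 42 genes, 10 have a single annotated transcript, 6 of them muscle-restricted, and so agree by annotation. The leader differed for Cul7, Kbtbd3 and Klhl24. In the tables from alignments, Klhl24 was split nearly evenly between the full Klhl24-201 (48.9% and 48.6%) and the short Klhl24-204 (47.8% and 48.8%), both annotated as coding. The direct quantification put Klhl24-201 first in both libraries, at 54.6 and 49.7 TPM against 17.3 and 15.9 TPM for Klhl24-204. The even split thus depends on the estimate. Across both kinds of transcript table and both libraries, 35 of 42 had the same leader. Klhl12 was led by Klhl12-201 in the tables (77.8% and 59.1%) and by Klhl12-203 in the direct quantification, where Klhl12-201 was at 0.

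The direct quantification gave higher TPM for most genes, by a median factor of 1.33 over all detected genes and 1.27 over these genes. The largest factors were 1.96 for Cul1 and 1.93 for Kbtbd12, and the smallest 0.914 for Klhl2. Overlap with other genes touched few of them. An annotated gene overlapped 27 of the 53, but for 2 alone did it hold at least 10% as many counts. Kbtbd4 (313 and 418 counts) overlaps Ndufs3 (4966 and 5296 counts) and Ptpmt1 (676 and 865 counts), both on the opposite strand. Kbtbd11 (111 and 204 counts) overlaps the opposite-strand Gm37844 (11 and 33 counts). Whether the counting used the strand is not given in the sources used here, so the Kbtbd4 level is uncertain.

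The genes beside the muscle-restricted adaptors were of very different levels. Klhl41 lies between Bbs5 (1.40 and 2.04 TPM, 2549 bases away) and Fastkd1 (5.41 and 5.77 TPM, 2585 bases away), both far below it. Klhl31 likewise lies between Lrrc1 (0.65 and 0.76 TPM) and Gclc (2.46 and 2.46 TPM). Klhl40 ends 198 bases from the end of Hhatl, a gene on the opposite strand at 124.71 and 138.63 TPM, above Klhl40 itself. Klhl34, low in both libraries, has as a neighbour the striated-muscle gene Smpx at 245.81 and 273.21 TPM, 65844 bases away, and on its other side Cnksr2 at 0.06 and 0.21 TPM.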

How the data were processed

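Total RNA of 2 gastrocnemius libraries was used. The authors deposited a gene and a transcript table per library with expected counts and TPM, an interval of the TPM whose level is not stated, and an isoform percent, per the file headers. The direct quantification is another deposited transcript table, with estimated counts and TPM obtained from the reads without the alignments, and was summed per gene. The notes with the files name mm10 and GENCODE M21; aligner and quantifier names are not given in the sources used. Rows named only by a number (26248, with 1 and 0 counts) were left out, and spike-ins (285878 and 317175 counts) entered no library size.

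Expected counts were rounded, and edgeR 4.0.16 gave TMM factors of 0.957 and 1.05; size factors of DESeq2 1.42.0 were tried in their place. Work was done in R 4.3.3 and Python 3.11.15. The fold calls were tested on simulated data that held counting error only, so further spread between libraries was not covered. Ratios carry a prior count of 0.5. CAST/EiJ reads were measured against a C57BL/6J reference.

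Members, gene lists and alternatives were chosen with earlier results of these data known. Values are given for every muscle-restricted adaptor, every cullin, the 15 other adaptors of highest mean TPM, called members, members under 1 TPM with their extremes, and of each partner list the 3 highest and the lowest; neighbours, overlapping genes and further transcripts were named once their values were known. From the partner lists, 1 gene is not reported here.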

Additional observations from a re-analysis of the deposited data

How the results depend on the processing

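The number of members at 1 TPM in both libraries was 42 to 47 under all alternatives. The median TPM of the muscle-restricted adaptors was 39.3 in the direct quantification, 59.7 with TPM rescaled over nuclear protein-coding genes, 68.3 as CPM without length correction and 152 for the list of 4, and 23.1 to 35.5 without each replicate. Their share of adaptor TPM was 75.9% as CPM and 60.3% for the list of 4, and 73.0% to 74.7% without each replicate. The Cul3 share of cullins was 39.1% in the direct quantification, 37.4% from posterior means and 29.3% as CPM. Members called numbered 7 without a low-count limit, where 34.5% of genes were called, and 1 at 2-fold, where 4.66% were called. Under TPM ratios (pseudocount 0.1) 6 were called, against 15.1% of all genes tested, and 75.4% of all calls were higher in replicate 2. At a limit of 5 TPM, 21 of 23 members had the same leading transcript in both libraries, against 39 of 42. The median coding share was 94.7% in the direct quantification and 97.2% to 97.4% without each replicate. No log2 ratio of a called member changed sign; the cause of the differences was not tested.

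Precision is limited by 2 libraries and, for the lowest adaptors, by counts. Klhl32 and Klhl35 had at most 10 counts in a library and were under the limit of 20 summed counts; both were called without it, and Klhl32 in the direct quantification. No paired analysis was possible because the series has 1 group and no second group shares its replicate numbers.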
